A study of Mus musculus with 6 samples.

Results

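The interferon response genes Ifi27, Ifit2, Ifitm1, Ifitm2, Ifitm3, Stat2, Irf1, Irf3 and Isg15 were compared between 2 mouse pluripotent lines on Illumina bead arrays. The 9 genes were chosen by name, with earlier results of these data known. All of their probes were taken, 21 of the 34885 probes that carried a single gene symbol. The test line, i2PS, came from BALB/c liver, where hepatocytes had been reprogrammed to pluripotency inside the animal. The reference line, E14TG2A, was derived from the inner cell mass of Sv129 blastocysts and bought from ATCC. Both lines were cultured with LIF, first on fibroblast feeders and then for 3 passages on gelatin without them, and neither group carried a further treatment in the labels. Each group was 1 line with 3 arrays, called biological replicates in the series' design text, so that p-values cover only how cultures of these lines vary, and strain, origin and reprogramming cannot be told apart.

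Interferons bind receptors that activate JAK kinases, which phosphorylate STAT proteins. A complex that contains STAT2 and IRF9 binds the interferon stimulated response element (ISRE), and STAT pairs bind the gamma activated site (GAS), and in this way antiviral genes are switched on. Pluripotent stem cells are known to answer interferon weakly, yet to express some of these genes, the IFITM genes among them, without it.

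Ifi27, Ifit2 and Ifitm1 were higher in i2PS, Ifitm1 by 2.07-fold with its brightest probe. The others were not detected in E14TG2A, and their brighter probes put them at least 2.22-fold and 1.57-fold higher. Those bounds hold for these probes and the main background correction. Ifitm2, Ifitm3 and Stat2 did not pass the test, and neither did the brightest probe of Irf1, while that of Irf3 passed weakly. Isg15 was detected on no array. Of the 8 member genes that could be tested, 4 passed as higher in i2PS and 0 as lower (limma, adjusted p under 0.05). Over all 8651 tested genes 42.3% passed, 22.6% higher and 19.7% lower, so that passing was common in this comparison. After normalization the arrays of the lines did not overlap for 6 of the 8, against 55.8% of all tested genes. Ifi27 and Ifit2 entered the test through i2PS alone, so the filter itself favoured a difference for them. The members had a median log2 difference of 0.32, against 0.03 over all genes. Counted by probe, 6 of the 14 tested member probes were higher and 1 was lower, where 40.9% of all 12841 tested probes passed, 21.9% higher and 19.0% lower. Because the members were chosen with earlier results known, these comparisons with all genes and probes are a description.

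Array signals are given below as deposited, in linear intensity units, and all log2 differences are i2PS minus E14TG2A after background correction and quantile normalization. A probe counted as detected on an array when its detection p, a rank among that array's negative controls, was under 0.01. It was tested when it was detected on all 3 arrays of at least 1 line. A gene was read from its tested probe with the highest mean. The array E14TG2A replicate 1 was dimmer than the others, with a mean signal of 227.9 against 340.2 to 402.7, so its deposited signals ran low for most probes. Its correlation with the other E14TG2A arrays was 0.9823 and 0.9833 across probes, where pairs within a line otherwise reached 0.9928 to 0.9951.

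**Figure D1:**
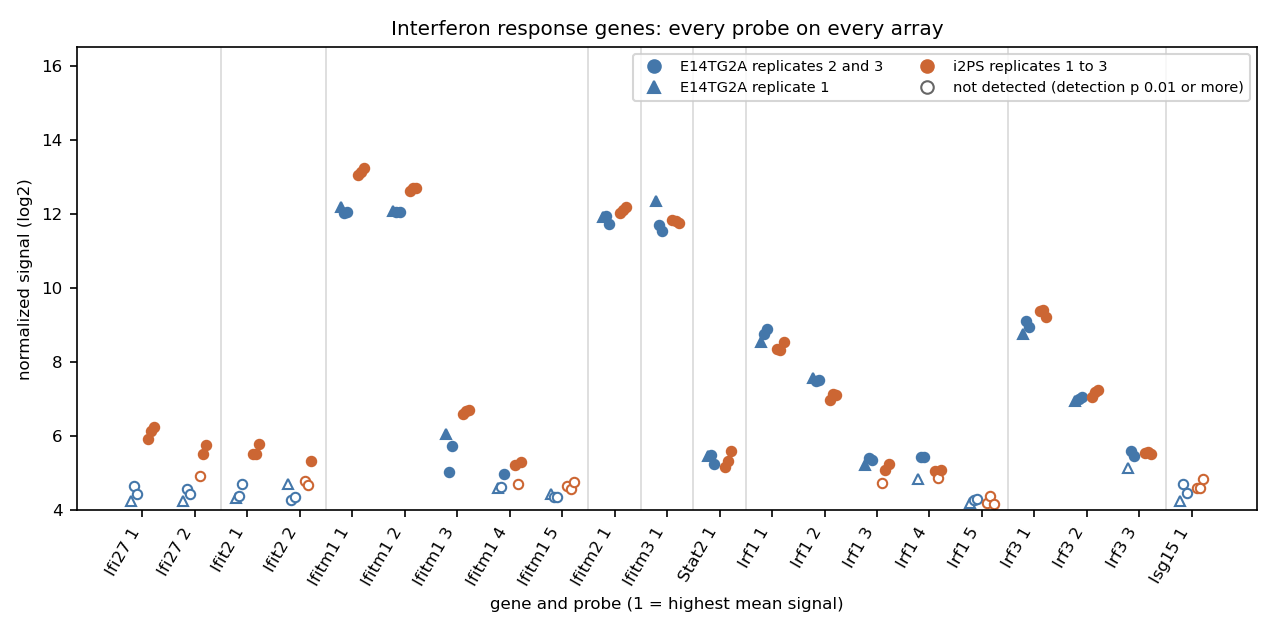
Normalized log2 signal of all 21 probes of the 9 genes on each of the 6 arrays, with probes numbered within a gene by mean signal, filled points detected and open points not detected. The i2PS points of the first Ifi27, Ifit2 and Ifitm1 probes lie above all E14TG2A points, and Isg15 has open points only.

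Because ISRE and GAS elements are the sites through which these genes are known to be switched on, their cores were searched in the promoters of the members. RefSeq promoter windows of GRCm38.p6, from 250 bases before to 50 bases after an annotated start, were found for all members but Ifi27, 10 windows in all. The reference genome is of another strain than either line. The ISRE core, GAAA followed after 2 bases by GAAA and searched on both strands, was present in 3.44% of all 32851 windows, and the GAS core TTCNNNGAA, which reads the same on both strands, in 8.30%. The ISRE core stood in the windows of Isg15, Ifitm2, Ifitm3 and Stat2, and the GAS core in those of Irf1, Ifit2 and Ifitm3. Neither core was in the windows of Ifitm1 and Irf3, which says only that these letters are not in this stretch. The windows of Ifitm1, chr7:140967826-140968125, and Ifitm2, chr7:140955912-140956211, lie inside these genes, so the bases before their outermost starts were not searched. Those of Ifit2, chr19:34550444-34550743 and chr19:34550838-34551137, belong to starts inside that gene. The bases before its outermost start were therefore searched only in part. The matched stretches are printed 5′ to 3′ on the strand of the gene, with the cores in capitals, except the GAS core of Ifitm3, where the capitals mark the ISRE cores.
Isg15: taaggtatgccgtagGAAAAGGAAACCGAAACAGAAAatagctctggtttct
Ifitm2: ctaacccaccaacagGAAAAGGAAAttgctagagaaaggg
Ifitm3: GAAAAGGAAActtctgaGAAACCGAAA
Stat2: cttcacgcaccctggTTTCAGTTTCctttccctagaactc
Irf1: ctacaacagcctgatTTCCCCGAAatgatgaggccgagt
Ifit2: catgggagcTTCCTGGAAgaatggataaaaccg
The Isg15 stretch, chr4:156200860-156200911 on the minus strand, holds 3 overlapping ISRE cores from 78 to 57 bases before the start. That of Ifitm2, chr7:140955983-140956022 on the minus strand, holds 1 core that begins 46 bases before the start. Ifitm3 has 2 ISRE cores within the first 29 transcribed bases, chr7:141010716-141010742 on the minus strand, and a GAS core that overlaps the second of them. In Stat2, at chr10:128270261-128270300 on the plus strand, the ISRE core is on the opposite strand. The GAS core of Irf1 lies at chr11:53769909-53769947 and that of Ifit2 at chr19:34550444-34550476, both on the plus strand. The windows with an ISRE core belonged to 1 gene with no detected signal and 3 genes that did not pass the test. Those of the called genes Ifit2, Ifitm1 and Irf3 held none, which covers these stretches only. For Ifitm1 they leave out the bases before the outermost start, and for Ifit2 some of them. Whether such sites bear on the differences was not tested. The remaining called gene, Ifi27, had no window to search.

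Stat2, the partner of IRF9 in the complex that binds the ISRE, is at chr10:128270498-128292853 and had 1 probe. Its signal was 100.1, 125.3 and 128.9 in E14TG2A and 110.7, 121.3 and 126.1 in i2PS. The lines overlapped, and all 6 arrays lay close above background. The log2 difference was -0.04 ± 0.14 (SE, n = 3 per line; limma adjusted p = 0.845), with a 95% confidence interval from -0.35 to 0.27. The interval excluded a 2-fold difference on the normalized scale, but so close to background it does not bound the difference in transcript level.

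Irf1, a transcription factor induced by interferon gamma, is at chr11:53770014-53778374 and had 5 probes, of which 3 were tested. The brightest gave 266.7, 566.0 and 733.3 in E14TG2A and 417.8, 430.7 and 470.1 in i2PS. The deposited signals overlapped through the dim array, and after normalization all 3 i2PS arrays lay below the E14TG2A arrays. Its log2 difference was -0.33 ± 0.13 (limma adjusted p = 0.0676), and without E14TG2A replicate 1 it passed at -0.42 (adjusted p = 0.0156). The next probe was lower at -0.46 ± 0.11 (adjusted p = 0.00866), from signals of 174.0, 278.2 and 331.8 against 206.1, 233.0 and 224.3. The third tested probe was at -0.30 ± 0.15 (adjusted p = 0.130), so all 3 pointed the same way and 1 passed.

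Irf3, the factor that is phosphorylated by TBK1 after virus sensing and then induces interferon beta, is at chr7:44997648-45002848 and had 3 probes, all tested. The brightest gave 296.4, 697.8 and 756.0 in E14TG2A and 777.0, 822.4 and 707.6 in i2PS. After normalization the lines did not overlap, and the log2 difference was 0.40 ± 0.12 (limma adjusted p = 0.0294), a 1.32-fold rise. The call ended without E14TG2A replicate 3 (adjusted p = 0.0623), i2PS replicate 1 (0.0831) or i2PS replicate 2 (0.102), and with array medians set equal instead of quantile normalization (0.374). The other probes gave 0.16 ± 0.11 and 0.13 ± 0.13 and did not pass (adjusted p = 0.250 and 0.446), and the mean of the 3 probes was at 0.23 (adjusted p = 0.102).

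Ifit2, a tetratricopeptide repeat protein that acts against viral RNA translation, is at chr19:34550550-34576534 and had 2 probes. The brighter gave 85.7, 96.3 and 110.5 in E14TG2A, where it was detected on no array, and 121.2, 127.0 and 133.0 in i2PS, where it was detected on all 3. Every i2PS array was above every E14TG2A array. By this probe Ifit2 was at least 1.57-fold higher in i2PS, a bound that sets the E14TG2A arrays at their lowest detected signal. Its fitted log2 difference was 1.13 ± 0.14 (limma adjusted p = 2.7e-04). That value rests on signals near background, and it was 0.53 with a normexp background correction at an offset of 50 and 0.38 with none, past the threshold in both cases (adjusted p = 6.3e-04 and 0.00207). The second probe reached detection on i2PS replicate 3 alone, gave no such bound and was not tested. With no filter applied it was at 0.48 ± 0.20 and did not pass (adjusted p = 0.206), and its normalized values overlapped between the lines.

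Ifi27, a small membrane protein of mitochondria and the nuclear envelope that interferon alpha induces, is at chr12:103434189-103440245 and had 2 probes. The brighter gave 82.5, 103.2 and 102.6 in E14TG2A, undetected on all 3 arrays, and 137.9, 153.6 and 155.6 in i2PS, detected on all 3. The lines were wide apart relative to their own spread, with normalized log2 values of 4.45 ± 0.21 in E14TG2A and 6.10 ± 0.16 in i2PS (SD, n = 3). By this probe Ifi27 was at least 2.22-fold higher in i2PS, where the second probe gave at least 1.37-fold. The fitted log2 difference of the brighter probe was 1.65 ± 0.14 (limma adjusted p = 4.1e-05). It was 0.84 with that other background correction and 0.61 with none (adjusted p = 3.2e-05 and 1.3e-04). The second probe was detected on 2 i2PS arrays, with 83.0, 101.3 and 102.4 against 105.4, 127.0 and 132.6, and when no filter was applied it was higher by 0.98 ± 0.22 (adjusted p = 0.0311).

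Isg15, a ubiquitin-like protein that is joined to other proteins after interferon treatment, is at chr4:156199424-156200818 and had 1 probe. Its signal was 82.5, 103.8 and 104.2 in E14TG2A and 98.4, 102.7 and 105.7 in i2PS. The lines overlapped, the lowest detection p was 0.0139, and these values lay near the array medians of 88.3 to 103.3. Isg15 was therefore not tested.

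Ifitm1, Ifitm2 and Ifitm3 are neighbouring genes of chromosome 7 that encode small membrane proteins, which hinder the fusion of viruses with cell membranes. In the mouse embryo Ifitm1 and Ifitm3 are also known as markers of early germ cells. Ifitm1, at chr7:140967429-140969827, had 5 probes. The brightest gave 2686.1, 4735.9 and 5577.4 in E14TG2A and 8708.5, 9912.5 and 10430.3 in i2PS. All i2PS arrays were above all E14TG2A arrays both before and after normalization, and the log2 difference was 1.05 ± 0.11, or 2.07-fold (limma adjusted p = 1.3e-04). The second probe, with 2481.3, 4833.4 and 5574.9 against 6680.2, 7429.1 and 7240.0, was higher by 0.62 ± 0.10 (adjusted p = 0.00144). The third, with signals of 110.8 to 191.5, was higher by 1.05 ± 0.22 (adjusted p = 0.00513). The other 2 probes were too dim to be tested, so the direction was the same in all 3 tested probes and the size ranged from 1.53-fold to 2.07-fold.

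Ifitm2, at chr7:140954837-140959686, gave 2200.0, 4528.1 and 4522.7 in E14TG2A and 4347.0, 4806.3 and 5111.1 in i2PS with its only probe. The deposited signals overlapped, the normalized values did not, and the log2 difference of 0.24 ± 0.11 did not pass (limma adjusted p = 0.126). Its 95% confidence interval, from -0.02 to 0.49, excluded a 2-fold difference under quantile normalization. With medians set equal, the difference was 0.41 ± 0.35 (limma adjusted p = 0.58), too wide a spread to exclude a 2-fold difference. Ifitm3, at chr7:141009590-141010744 and also with 1 probe, gave 3084.9, 3834.5 and 3969.3 in E14TG2A and 3830.9, 4080.2 and 3773.2 in i2PS. The lines overlapped, and the log2 difference was -0.06 ± 0.19 (adjusted p = 0.830) with an interval from -0.48 to 0.37. After normalization E14TG2A replicate 1 was the highest of the 6 arrays for Ifitm3, and without it the difference was 0.18 (adjusted p = 0.184).

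How far Ifitm1 exceeded its neighbours depended on the probe. Its brightest probe exceeded the log2 difference of Ifitm2 by 0.81 and that of Ifitm3 by 1.10, and its second probe by 0.38 and 0.67, the last of which was 0.44 without E14TG2A replicate 1. These excesses are a description with no test, since the probes were set against each other after their values were seen. The probe sequences were not used here, so cross-hybridization between these similar genes was not tested. Of the other IFITM genes with a probe, Ifitm6 and Ifitm10 were detected on no array and Ifitm5 on 1.

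**Figure D2:**
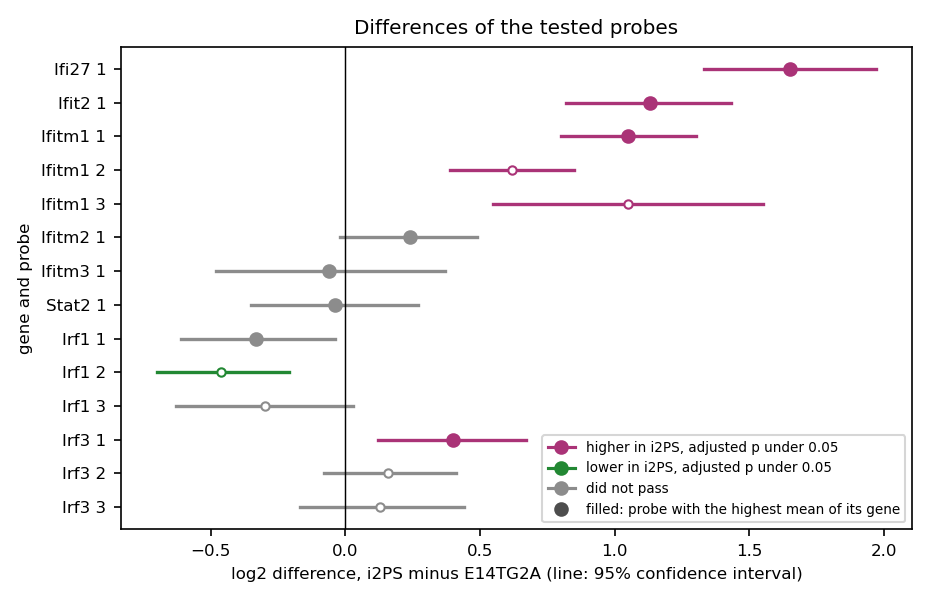
Log2 difference between i2PS and E14TG2A for the 14 tested probes, with 95% confidence intervals, coloured by the result of the limma test. The first probes of Ifi27, Ifit2 and Ifitm1 lie at 1.65, 1.13 and 1.05, and the 3 Irf1 probes lie between -0.46 and -0.30.

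Ifi27 lies on chromosome 12 between genes that were higher and genes that were lower in i2PS. Of the 10 tested genes before it, 5 were higher in i2PS and 0 were lower, with a median log2 difference of 0.44. Of the 10 tested genes after it, 0 were higher and 8 were lower, with a median of -0.80. Over all tested genes 22.6% were higher and 19.7% lower, with a median of 0.03. On the near side, Btbd7, 555.7 kb away, was higher by 1.03 ± 0.13 and the deubiquitinase gene Otub2, 27.8 kb away, by 0.51 ± 0.14. The call of Otub2 ended without E14TG2A replicate 3 (adjusted p = 0.0558) or i2PS replicate 2 (0.0710). Ddx24, an RNA helicase gene 8.3 kb away, was at 0.37 ± 0.14 (limma adjusted p = 0.0554). On the far side, Ppp4r4, which encodes a phosphatase subunit and lies 92.0 kb away, was detected on no i2PS array and was at least 1.61-fold lower there. The next tested genes were much farther away. The microRNA-processing enzyme gene Dicer1, at 1247.5 kb, was lower at -0.68 ± 0.13, though the mean of its probes, at -0.20, did not pass (limma adjusted p = 0.194). The non-coding RNA gene Snhg10, at 1590.4 kb, was lower at -0.73 ± 0.16. With medians set equal, 2 of the 10 genes before Ifi27 were higher and 2 of the 10 after it were lower. In that setting 6.67% of all probes passed in either direction, a share by probe and not by gene. These parts of the chromosome were already known to shift in these arrays, so the counts are a description, and the part of position in the value of Ifi27 was not tested. Among its relatives, Ifi27l2a and Ifi27l2b were detected on no array.

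**Figure D3:**
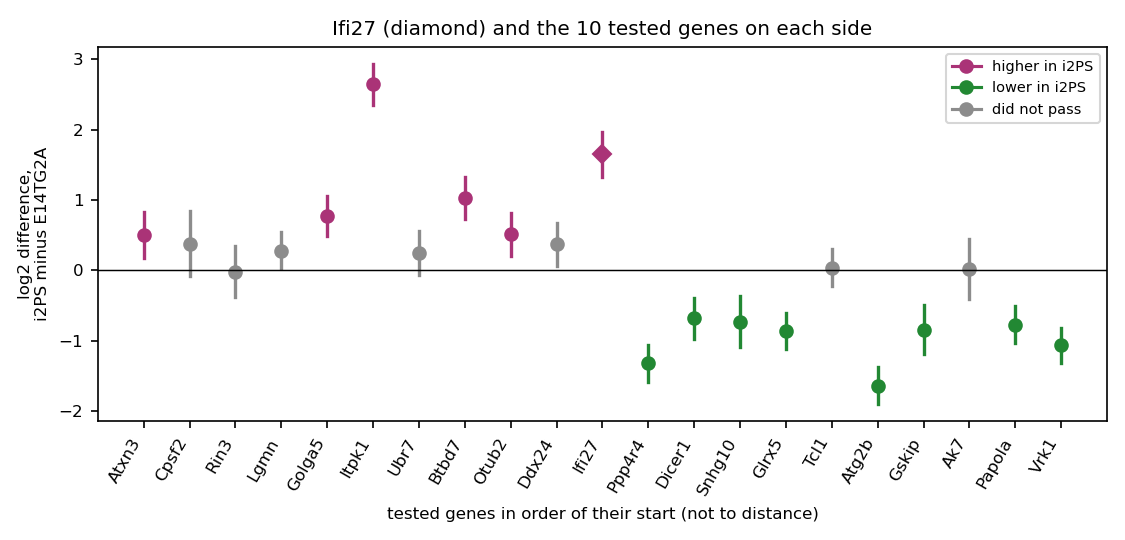
Log2 difference with 95% confidence interval for Ifi27 and the 10 tested genes on each side, in their order along chromosome 12. Ifi27, at 1.65, is the last gene above 0 that passed before a run in which 8 of 10 genes are lower in i2PS.

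The rest of the interferon pathway was read from 11 lists that hold 142 genes with the members, of which 130 had a probe. On no array were 46.9% of these detected, close to the 46.3% of all 19053 genes with a probe. Of the 56 that could be tested, 21 passed as higher in i2PS and 13 as lower, 60.7% in all against the 42.3% of all genes. With medians set equal in place of quantile normalization, 7 passed as higher and 2 as lower, where 6.67% of all probes passed in either direction. That share is by probe, while the lists are counted by gene. The SE was 0.35 in that setting, so that Tyk2, for example, at a log2 difference of 1.00, did not pass (limma adjusted p = 0.063). Without the members, 17 of 48 were higher and 13 lower, with a median log2 difference of 0.23. The lists too were chosen with earlier results known, so their shares are a description.

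Interferon ligands were hardly detected in either line. None of the 10 with a probe could be tested, 9 were detected on no array, Ifnb1 and Ifng among them, and Ifna1 was detected on at most 1 array of a line. Of the receptors, 2 of 6 were tested. Ifnlr1, the chain that binds interferon lambda, was higher by 0.96 ± 0.18 (limma adjusted p = 0.00273), from signals of 98.3, 149.4 and 162.4 to 179.5, 195.9 and 196.1. Ifngr2, a chain of the interferon gamma receptor, was at 0.64 ± 0.32 and did not pass (adjusted p = 0.136), but without the dim array E14TG2A replicate 1 it was higher by 1.02 ± 0.21 (adjusted p = 0.00375). Ifnar1, a chain of the receptor for interferons alpha and beta, was detected on no array, and its partner Ifnar2 was too dim to be tested.

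Kinases and STAT factors differed in both directions, with 3 of 7 tested genes higher and 2 lower. Over all tested genes the shares were 22.6% higher and 19.7% lower. Tyk2, a kinase bound to IFNAR1, was higher by 0.82 ± 0.11, whereas Jak1 and Jak2 were lower, at -0.83 ± 0.12 and -0.70 ± 0.16. Stat6, a factor of interleukin 4 signalling, was higher by 0.88 ± 0.20, and Stat5a was detected in i2PS alone, at least 1.13-fold higher. Stat3, which carries the LIF signal, was at -0.00 ± 0.11 (limma adjusted p = 0.984). Of the IRF genes outside the members, Irf9, the DNA-binding part of the complex with STAT2, was at 0.31 ± 0.11 with its brightest probe (adjusted p = 0.0546) and passed at 0.49 ± 0.11 as the mean of its probes (adjusted p = 0.00802). Irf4, Irf5, Irf7 and Irf8 were detected on no array.

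Of 12 tested negative regulators 3 were higher and 5 lower, against 22.6% and 19.7% of all tested genes. Socs3, which inhibits JAK kinases and answers LIF as well, was higher by 1.35 ± 0.13, Irf2bpl by 1.27 ± 0.12 and the phosphatase gene Ptpn2 by 0.54 ± 0.11. Irf2bpl, at chr12:86880703-86884814, is on the same chromosome as Ifi27, and the other of its 2 tested probes did not pass. Pias4 and Pias2, of a family that binds STAT proteins, were lower at -0.54 ± 0.14 and -0.41 ± 0.10, and Irf2bp2 was lower at -0.39 ± 0.13. The call of Irf2bp2 ended without E14TG2A replicate 2 or any i2PS array (limma adjusted p from 0.0592 to 0.108), and that of Pias4 ended without i2PS replicate 3 (0.05).

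Of 10 tested sensors of nucleic acids and their adaptors 6 were higher and 2 lower, against 22.6% and 19.7% of all tested genes. Aim2, a sensor of cytosolic DNA, was higher by 1.08 ± 0.12, Azi2, an adaptor of TBK1, by 0.82 ± 0.12, and Myd88, the adaptor of most Toll-like receptors, by 0.53 ± 0.14. Tbk1, the kinase that activates IRF3, was lower at -0.41 ± 0.12 and Zbp1, a sensor of Z-form nucleic acid, at -0.38 ± 0.11. Each of the last 3 calls ended without i2PS replicate 3 (limma adjusted p = 0.0681 for Myd88, 0.106 for Tbk1 and 0.0685 for Zbp1). That of Tbk1 also ended without E14TG2A replicate 3 (0.0717) or i2PS replicate 2 (0.0762), and that of Zbp1 without E14TG2A replicate 2 (0.0750) or i2PS replicate 1 (0.0874), and without background correction, where its difference was -0.14 (0.116). Ddx58, Mavs and Trim25 were also counted as higher, close to the threshold (limma adjusted p = 0.037, 0.0333 and 0.048). Their calls ended without i2PS replicate 2 or 3 (adjusted p from 0.055 to 0.149). With medians set equal, the calls of these genes and of Azi2, Myd88, Tbk1 and Zbp1 ended (adjusted p from 0.0741 to 0.804).

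Genes that interferon is known to induce were read by family. In the IFIT family, Ifit2 alone was tested, and the other 4 genes with a probe, Ifit1 and Ifit3 among them, were detected on no array. The 4 genes of ISG15 conjugation with a probe, Isg15, Uba7, Ube2l6 and Usp18, were detected on no array either. Of 48 further induced genes with a probe, 24 were detected on no array, near the 46.3% of all genes with a probe, among them the antiviral genes Mx1, Mx2, Rsad2 and Cxcl10. Of the 17 tested, 4 were higher, 4 lower and 9 did not pass. These shares are near those of all tested genes, 22.6% higher and 19.7% lower. Lgals9, a galectin, was detected in i2PS alone and was at least 1.57-fold higher, and Parp14 was higher by 0.88 ± 0.16. Bst2, which tethers budding viruses to the cell, was at 0.56 ± 0.20 (limma adjusted p = 0.0472), and it no longer passed when any array but i2PS replicate 1 was left out (adjusted p from 0.0622 to 0.139).

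The falls in this list were led by Gbp2, a guanylate-binding protein that interferon gamma induces. Its signal was 150.1, 298.8 and 359.3 in E14TG2A and 98.0, 93.8 and 92.6 in i2PS, where it was detected on no array. By this probe, the only 1 of its 3 that could be tested, Gbp2 was at least 5.84-fold lower in i2PS. Ifi30, a lysosomal thiol reductase also induced by interferon gamma, was lower by -1.45 ± 0.11, from 650.3, 1275.6 and 1346.0 to 462.1, 483.9 and 491.0. Adar, which edits double-stranded RNA, was lower at -0.84 ± 0.16 with its brightest probe, but 2 of its 4 tested probes did not pass, and the mean of the probes was at -0.17 (limma adjusted p = 0.175).

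**Figure D4:**
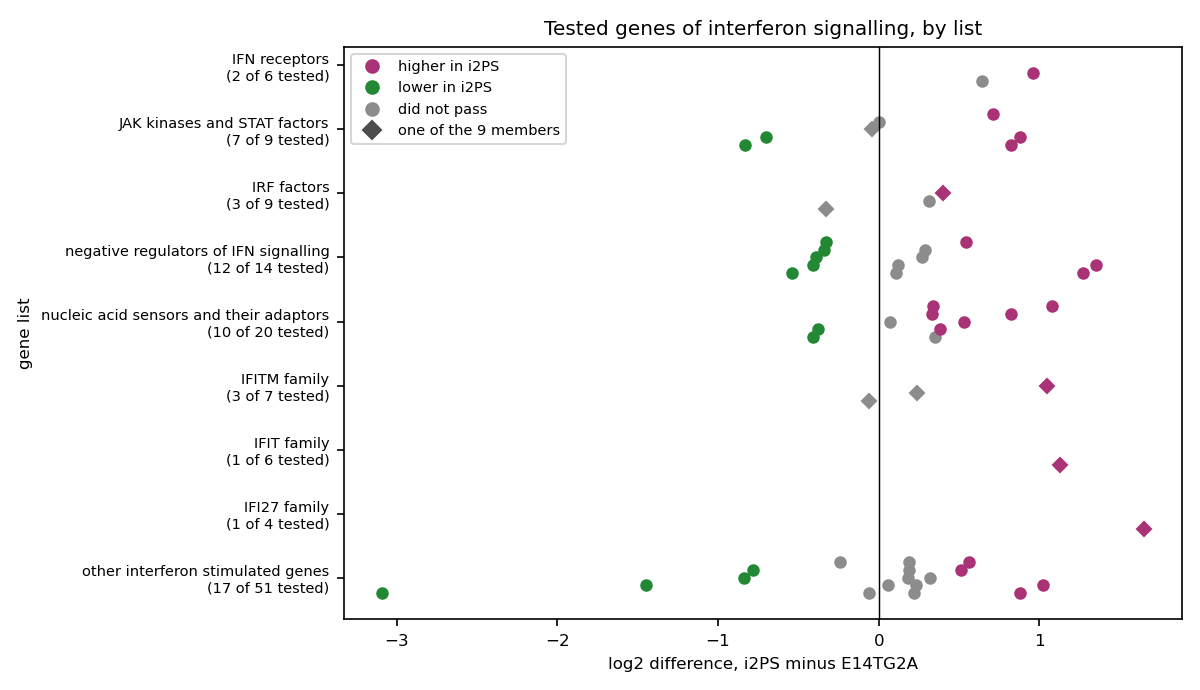
Log2 difference of each tested gene of the interferon pathway by list, coloured by the result of the limma test, with the members as diamonds. Gbp2 is the point at -3.09, and most other tested genes lie between -1 and 1.

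Cell type markers were checked on the same arrays, since other cells in a culture could carry interferon-induced transcripts. All 8 pluripotency markers were detected, with a summed normalized level of 45429 to 50138 in E14TG2A and 54579 to 55942 in i2PS. None of 8 hepatocyte markers was detected on any array. Each sum takes the brightest probe of every marker with a probe, detected or not. The undetected hepatocyte markers thus still summed to 156 to 161 in E14TG2A and 154 to 161 in i2PS. Of 7 macrophage and blood markers with a probe, Cd74 alone was detected on all 3 arrays of a line, and the summed level was 149 to 164 in E14TG2A and 146 to 152 in i2PS. Of 10 fibroblast markers, Thy1 and Twist1 were detected on all 3 arrays of a line, while Col1a2, Col3a1, Lum, Postn and Prrx1 were detected on no array, and the summed level was 303 to 326 in E14TG2A and 298 to 388 in i2PS. Of 8 endothelial markers 5 were detected, with 626 to 705 in E14TG2A and 607 to 677 in i2PS. The ranges of the lines overlapped in these last 3 lists and not in the pluripotency list, whose part in the differences of the members was not tested. The sums of these 3 lists include probes at background, the macrophage sum most of all, so their overlap says little about other cells in the cultures.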

How the data were processed

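Total RNA of 3 i2PS and 3 E14TG2A cultures was labelled with biotin and hybridized to 1-colour Illumina arrays, per the labels. The authors deposited linear probe intensity values for 45281 probes, from GenomeStudio per the submitters' processing notes, not corrected for background or normalized, as their array medians of 88.3 to 103.3 show. A detection p-value was deposited beside each intensity. A second deposited table of intensity values shared 1 median, 96.7, on all arrays, ranked each array's probes in the same order, and served as an alternative; its processing steps are not given in the sources used here.

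Background was estimated from the detection p-values with neqc of limma 3.58.1 in R 4.3.3 (offset 16), followed by quantile normalization and log2. Of the probes, 34885 had a single symbol, 18 had several and 10378 were unlisted. Symbols came from the platform annotation, updated by gene number (34807) or accession (11) to RefSeq for GRCm38.p6, and 67 kept the platform symbol. Tested probes were fitted with lmFit and eBayes, with Benjamini-Hochberg adjustment over all of them. The fit was checked on simulated data. Where a line had no array with detection, the "at least" fold sets that line at the lowest detected signal per array or at its own, if higher. It holds for the probe read and the main background correction. The number of arrays limits the precision. Members and lists were chosen with earlier results of these data known. Genes named were the members, up to 3 rises and 3 falls per list, 3 neighbours on each side of Ifi27 and the markers. Ifngr2, Stat3, Irf9, Ddx58, Mavs, Trim25 and the undetected genes were named after their values were seen.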

Additional observations from a re-analysis of the deposited data

How the results depend on the processing

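Across 19 alternatives for Ifitm1 and 18 each for Ifi27 and Ifit2, the direction and the call were kept in all, with log2 differences of 0.90 to 1.23, 0.61 to 1.76 and 0.38 to 1.24. Both dim genes could not be tested among probes detected on all 6 arrays, where 2 member genes passed, against 4 in the main analysis. With medians set equal instead of quantile normalization, 857 probes and 9 pathway genes passed, against 5248 and 34, and the median over all probes moved from 0.03 to 0.18. The sign of Ifitm3 turned to 0.10 with equal medians, 0.10 with array weights and 0.18 without E14TG2A replicate 1. That of Stat2 turned to 0.03 with equal medians, 0.01 with array weights, 0.00 without E14TG2A replicate 2 and 0.06 without i2PS replicate 1. Over the left-out arrays Ifitm3 ran from -0.22 to 0.18 and Stat2 from -0.15 to 0.06. None of these passed, and the cause was not tested. Irf1 passed in 7 of 19 alternatives, Ifitm2 in 3, and Irf3 lost its call in 7. Leaving out 1 array at a time gave 3 to 5 member genes, 23 to 36 pathway genes and 3698 to 5839 probes. With the replicate number as a block, 4956 probes, 31 pathway genes and the same number of member genes, 4, passed. Deviations of same-numbered arrays correlated at 0.014, -0.057 and 0.068 across probes, and i2PS replicate 2 correlated best with another number, so the numbers were not taken as pairs. A slide block was not run, because no slide is given in the sources used here. Depth does not apply to arrays; signals near background limit Ifi27, Ifit2, Stat2 and Isg15.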
